A study of Arabidopsis thaliana with 28 samples.

Results

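The SAUR61 to SAUR68 cluster is a tandem group of 8 small auxin up RNA genes on chromosome 1 of Arabidopsis thaliana. Its members were taken by locus identifier as 8 of the 33557 genes in the deposited expression table. The study followed the first hours of light in dark-grown Col-0 seedlings. All seedlings were germinated after 1 h of white light and kept in darkness for 3 days. One group of each tissue was then collected in the dark under green safe light, and the others following exposure to simulated white light for 15 or 30 min or for 1, 3, 6 or 12 h. Roots were cut off, the plant material went into ice-cold acetone, and the shoot was split under a stereomicroscope into hypocotyls and into cotyledons with the shoot apical meristem, called cotyledons here. Each of the 14 groups of tissue and time had 2 biological replicates, A and B, which gave 28 libraries of poly(A) RNA. No dark samples collected at the light times are among those analysed here, so light, age and time of day cannot be told apart. Each light time was compared with the same 2 dark libraries of its tissue.

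SAUR genes were named for their rapid rise after auxin. In Arabidopsis, members of the family bind and inhibit type 2C protein phosphatases of the D clade, which otherwise keep the plasma membrane proton pumps dephosphorylated, and pump activity acidifies the cell wall and lets the cell expand. Fusion proteins of SAUR63 have been shown to promote elongation of hypocotyls and other organs, and SAUR transcripts are short-lived. In a dark-grown seedling the hypocotyl elongates while the cotyledons stay small and closed, and light reverses this.

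In the TAIR10.1 annotation of RefSeq the members lay in 2 blocks on opposite strands. SAUR61 (AT1G29420), SAUR62 (AT1G29430), SAUR63 (AT1G29440), SAUR64 (AT1G29450) and SAUR65 (AT1G29460) were on the minus strand from 10301377, the start of SAUR61, to 10308246, the end of SAUR65. SAUR68 (AT1G29490), SAUR66 (AT1G29500) and SAUR67 (AT1G29510) were on the plus strand from 10319732 to 10323239. RefSeq gives AT1G29510 the symbol SAUR68 and remarks that the name should be SAUR67, which is used here. Identity between the encoded proteins ranged from 53.4% to 86.6% over the 28 pairs, with a median of 75.2%. SAUR62 and SAUR63 were the closest pair (86.6%), and SAUR63 and SAUR67, from the opposite blocks, were almost as close (86.3%). SAUR68 stood apart, with a protein of 102 residues against 135 to 148 in the other members.

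**Figure D1:**
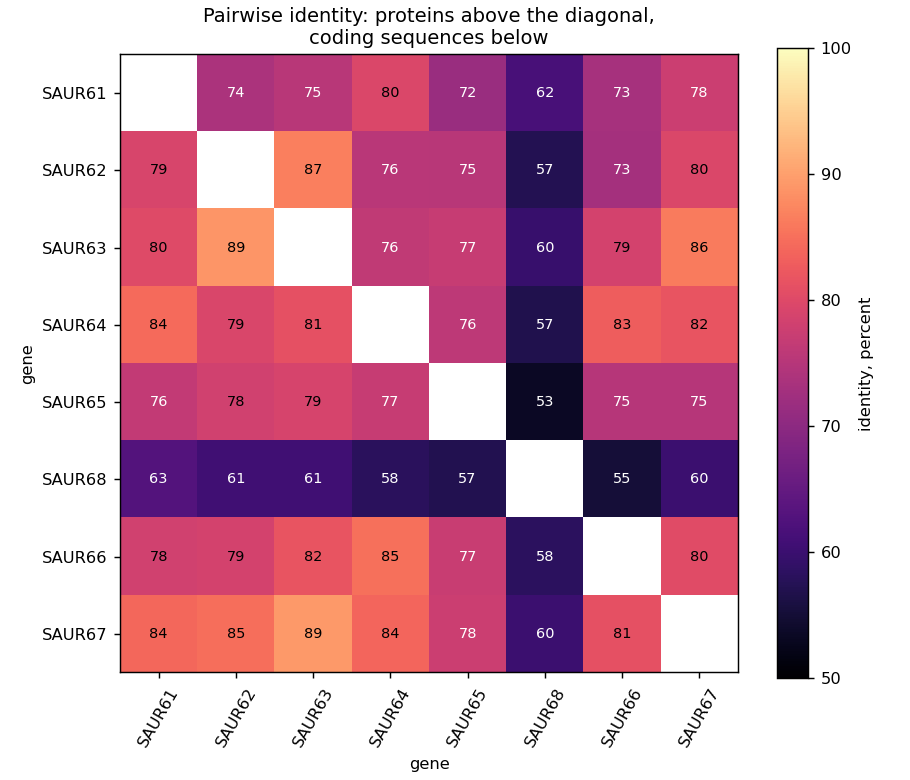
Pairwise identity in percent between the 8 members, with proteins above the diagonal and coding sequences below it, in the order of the loci along the chromosome. Protein identity runs from 53.4% to 86.6%, and the row and column of SAUR68 hold the lowest values.

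The sequences before the genes were read because the members moved together in hypocotyls. CACATG, which is known as an E-box form bound by PIF transcription factors, the growth-promoting bHLH factors that phytochromes remove in light, was searched on both strands in the 250 nt before each annotated start. It occurred before 8 of 8 members, before 24 of 72 other genes that RefSeq names SAUR, and before 11.1% of all 27437 genes with such a window. The palindromic G-box CACGTG occurred before 0 of 8 members and 6.5% of all genes. The auxin response element TGTCTC occurred before 3 members, SAUR62, SAUR66 and SAUR67, and 10.9% of all genes, and its high-affinity form TGTCGG before SAUR63 alone and 4.2% of all genes. In each member 1 of the CACATG motifs was followed by any base and TC. This longer form, CACATGNTC, was chosen after the windows were read. It overlaps CACATG, and it occurred before 8 of 8 members, 1 of 72 other SAUR genes and 0.7% of all genes. The members arose by duplication, so their matches are not independent, and a match in a window is no measure of binding.

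The 30 nt around that shared motif are shown 5′ to 3′ on the strand of each gene, as a direct view of what the members have in common. Capitals mark CACATG.
SAUR61: cctaaatcCACATGgtcaagtattttcagg
SAUR62: tttataccCACATGatcatgtcttctaacc
SAUR63: ttcataccCACATGatcatgtcttctcacc
SAUR64: ttcatactCACATGgtcatgtcttctcagt
SAUR65: aataccccCACATGgtcatgtttcttctca
SAUR68: atcgtatcCACATGatcacgccttttccac
SAUR66: ttgataccCACATGatcatgtcttctcagt
SAUR67: ttcataccCACATGatcttgtcttctcacc

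Counted from the annotated start, the motif began at −36 in SAUR66, −42 in SAUR67, −95 in SAUR64, −104 in SAUR65, −109 in SAUR62, −117 in SAUR61, −193 in SAUR63 and −194 in SAUR68. The whole 250-nt windows of SAUR62 and SAUR68 are given because this pair had the lowest correlation between members across the cotyledon means (r = −0.502). SAUR68 held at most 2 reads in any cotyledon library, so this r rests on values near 0 and is no measure of an opposite pattern. Any link between the motifs and expression was not tested. Capitals mark CACATG or its reverse complement CATGTG, and TGTCTC. The SAUR62 window is chr1:10303419-10303668 on the minus strand and the SAUR68 window is chr1:10319482-10319731 on the plus strand, both in TAIR10.1.
SAUR62: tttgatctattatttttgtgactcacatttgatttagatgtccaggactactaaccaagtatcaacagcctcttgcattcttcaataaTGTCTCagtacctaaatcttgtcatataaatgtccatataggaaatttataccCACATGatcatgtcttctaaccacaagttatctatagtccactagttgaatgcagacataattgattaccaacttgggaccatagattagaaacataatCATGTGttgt
SAUR68: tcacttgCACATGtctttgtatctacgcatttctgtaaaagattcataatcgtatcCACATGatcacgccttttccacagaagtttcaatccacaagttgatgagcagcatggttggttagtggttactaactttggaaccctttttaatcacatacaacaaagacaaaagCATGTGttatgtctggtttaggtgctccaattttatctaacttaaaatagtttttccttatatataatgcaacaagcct
SAUR68 held CACATG at 3 places and no TGTCTC, and SAUR62 held CACATG at 2 places and TGTCTC at 1.

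Expression was deposited as FPKM, a fragment count divided by transcript length and library size, which allows levels to be compared between genes. Counts were not used here, so absolute depth is unknown. Low values came in steps of whole reads, and these steps put the relative depth of the libraries between 0.614, in cotyledons at 1 h replicate A, and 1.72, in hypocotyls at 1 h replicate B, on a scale centred on 1. Of 11097 low values of 2 to 5 steps, 94.7% fell within 0.1 of a whole number. Replicates correlated at 0.965 to 0.985. The dissection held by markers: the 5 lateral organ markers had summed levels of 162 to 285 FPKM in cotyledons against 0.261 to 6.03 FPKM in hypocotyls, and the 6 endodermis markers had 19.1 to 45.8 against 360 to 1940 FPKM. The endodermis markers were lower in hypocotyls at 12 h, where 5 of 6 were called lower against darkness (median log2 change −2.20) and the 2 libraries summed to 360 and 392 FPKM, against 1200 to 1940 FPKM in the earlier hypocotyl libraries. All 5 root hair and root cap markers had means below 0.1 FPKM in both tissues. The 4 shoot meristem and boundary markers summed to 7.52 to 15.5 FPKM in cotyledons and 0.462 to 4.16 in hypocotyls.

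In darkness the members were expressed in hypocotyls and nearly silent in cotyledons. Together they summed to 467 and 545 FPKM in the dark hypocotyl libraries and to 2.83 and 1.33 FPKM in the dark cotyledon libraries. SAUR64 was the most abundant member, at 107 and 127 FPKM in dark hypocotyls, followed by SAUR66 at 96.2 and 111 FPKM. The values of both genes overlapped. SAUR67 was at 68.3 and 78.7 FPKM, SAUR63 at 56.3 and 72.9, SAUR65 at 52.4 and 58.7, SAUR62 at 41.7 and 52.2 and SAUR68 at 42.4 and 40.3. In this order SAUR67 lay below SAUR66 and SAUR62 just below SAUR65 without overlap, and the other neighbours overlapped. SAUR61 was far below the rest, at 2.52 and 4.20 FPKM.

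In dark cotyledons each member had a mean of at most 0.591 FPKM, and by the read steps no library held more than 3 reads of any member. SAUR62, SAUR63, SAUR67 and SAUR68 were listed at 0 in replicate B. A filter kept genes whose mean level reached 1 FPKM across all 28 libraries, and 7 members passed it. All 7 were higher in dark hypocotyls, by 5.19 to 6.43 on the log2(FPKM + 1) scale, a scale that understates differences against levels near 0 (limma, all Benjamini-Hochberg adjusted p at most 1.72e-10). SAUR61 did not pass the filter and was not tested. A call here means an adjusted p under 0.05 over 18678 genes and a log2 difference of at least 1, and 23.4% of all genes were called higher in dark hypocotyls. In bulk tissue, fewer cells of a type and less RNA per cell cannot be told apart. As a measure of carry-over, CASP1, an endodermal gene, had in dark cotyledons 0.173% of its dark hypocotyl mean, while the 8 members had between 0.132% (SAUR67) and 2.54% (SAUR61). The endodermis markers together, CASP1 among them, summed to 24.1 and 26.5 FPKM in dark cotyledons and to 1590 and 1700 FPKM in dark hypocotyls. The part of carry-over in the traces of the members was not tested.

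**Figure D2:**
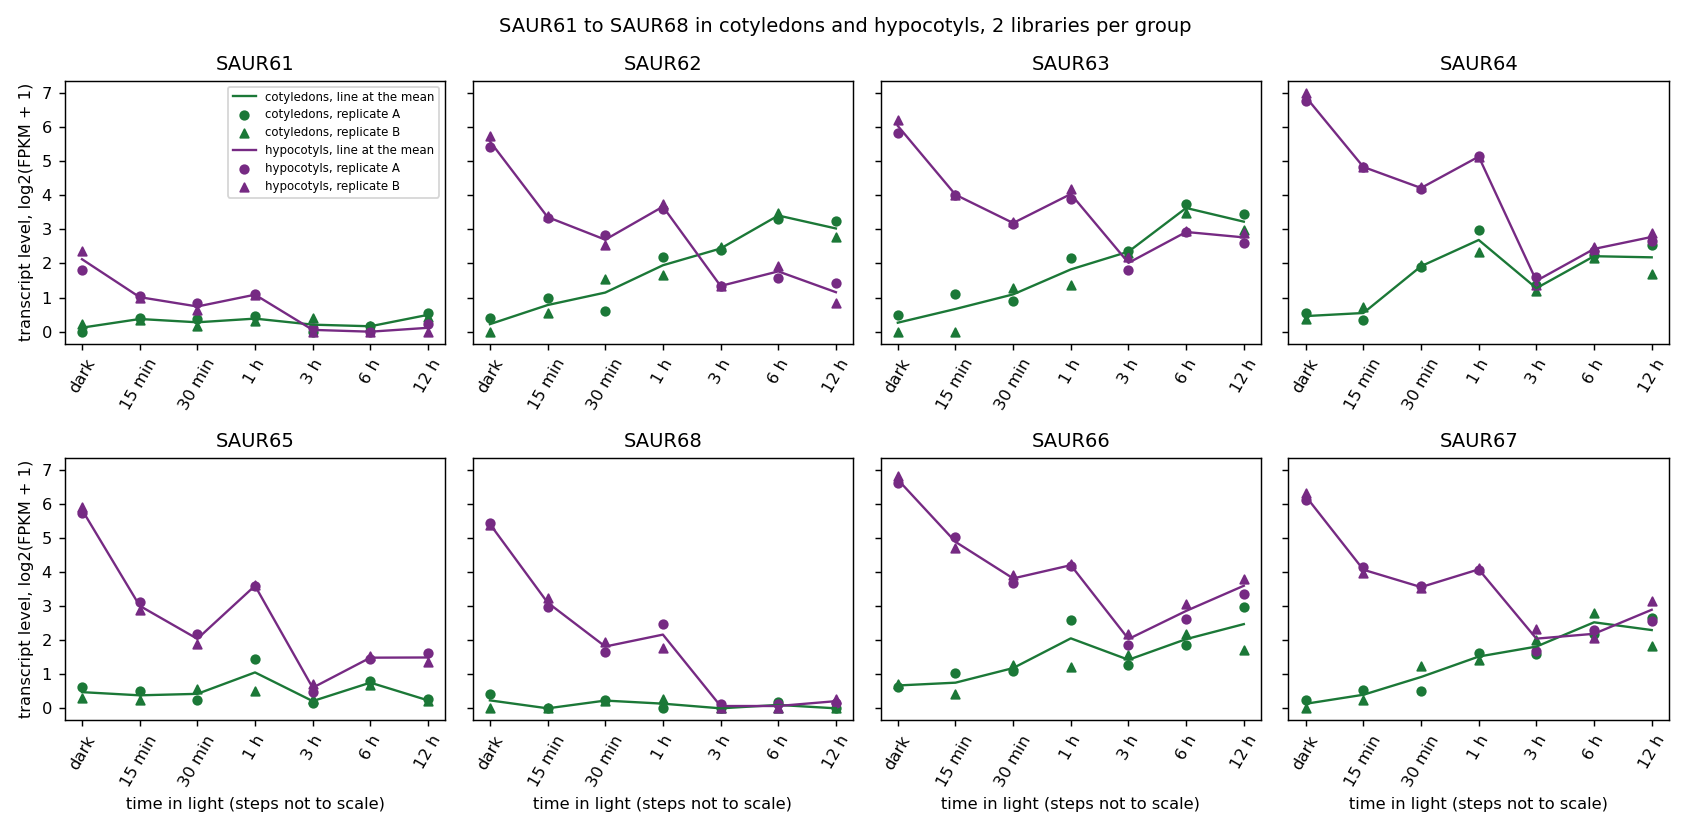
Transcript level of each member, as log2(FPKM + 1), against time in light, with cotyledons in green and hypocotyls in purple. Circles are replicate A, triangles are replicate B, and lines join the means of the 2 libraries. Mean hypocotyl levels are lower at 15 min than in darkness, higher at 1 h than at 30 min and lower again at 3 h, while SAUR62, SAUR63 and SAUR67 rise in cotyledons.

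Every tested member was lower in hypocotyls after 15 min of light. SAUR64 went from 107 and 127 FPKM to 27.4 and 27.5 FPKM, which was 23.4% of its dark mean. SAUR65 went from 52.4 and 58.7 to 7.65 and 6.42 FPKM, or 12.7%. SAUR66 went from 96.2 and 111 to 31.8 and 25.2 FPKM, or 27.6%. In all 8 members both 15 min libraries lay below both dark libraries, and the share of all genes with such a separation was not counted. By limma 0.616% of all tested genes were called lower in this comparison. SAUR61, which was not tested, was at 1.06 and 0.977 FPKM, or 30.3% of its dark mean.

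All 7 tested members were called lower at 15 min. The log2 change was −2.82 ± 0.22 (SE) for SAUR65, −2.31 ± 0.19 for SAUR68, −2.21 ± 0.26 for SAUR62, −2.15 ± 0.29 for SAUR67, −2.05 ± 0.21 for SAUR64, −2.01 ± 0.30 for SAUR63 and −1.83 ± 0.39 for SAUR66. The adjusted p from limma ranged from 3.51e-08 for SAUR65 to 0.0103 for SAUR66. Over all 18678 genes 115 were called lower, and the median change was −0.02. SAUR65 had the 30th lowest change and SAUR66 the 85th. The weakest calls had limits. SAUR66 missed the threshold, with adjusted p of 0.0531 to 0.11, when either dark hypocotyl library or replicate B at 15 min was left out, and with a pseudocount of 0.1 FPKM both SAUR66 (adjusted p = 0.083) and SAUR63 (adjusted p = 0.328) missed it. With that pseudocount SAUR63 was not called at 1 h either (adjusted p = 0.102).

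The speed of the decline can be put as a halving time. Decline at one constant rate from the dark mean to the 15 min mean would halve the level every 5.03 min for SAUR65, every 6.13 min for SAUR68 and every 8.70 min for SAUR61, with the other members between. This is arithmetic on 2 means; synthesis and decay were not measured.

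**Figure D3:**
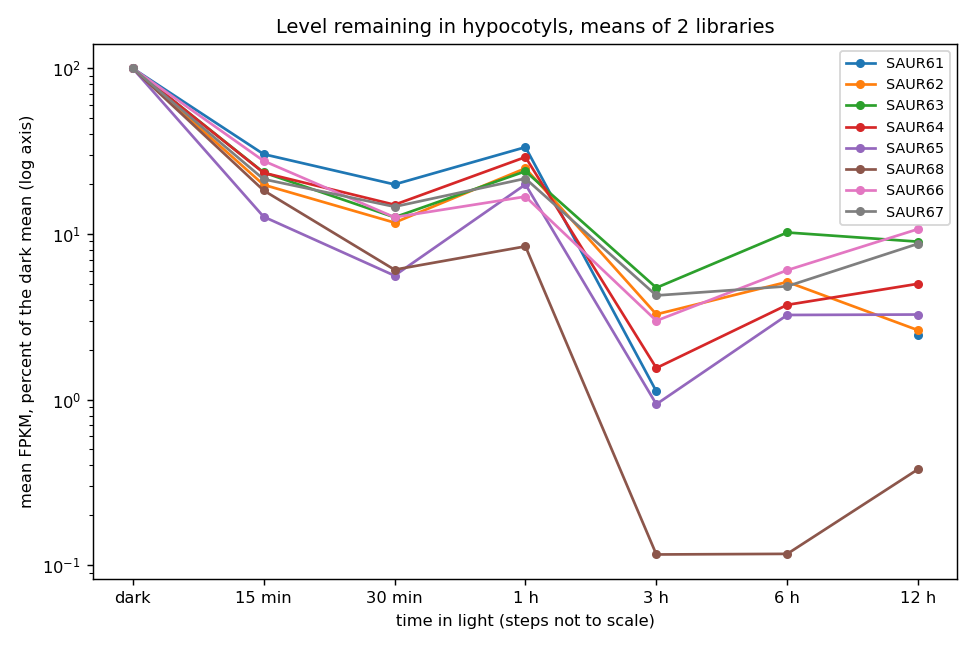
Mean hypocotyl level of each member as a percentage of its dark mean, on a log axis, against time in light; a mean of 0 (SAUR61 at 6 h) is not drawn. At 15 min the members stand at 12.7% to 30.3%, at 30 min lower, at 1 h higher again, and by 3 h SAUR68 is at 0.116% and SAUR63 at 4.73%.

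The hypocotyl levels did not fall steadily. The summed level of the cluster in hypocotyls went from 116 and 108 FPKM at 15 min to 60.7 and 61.7 FPKM at 30 min, back to 109 and 112 FPKM at 1 h, and then to 11.5 and 14.9 FPKM at 3 h. Both 1 h libraries lay above both 30 min libraries in 7 of 8 members, all except SAUR68. The share of all genes with such a separation was not counted. By limma, 1 of 7 tested members and 2.2% of all genes were called higher in this step. SAUR65 moved most, from 3.51 and 2.71 FPKM at 30 min to 11.02 and 11.15 FPKM at 1 h, 3.57-fold in the means. Its log2 change over this step was 1.56 ± 0.22 (limma, adjusted p = 3.83e-05).

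SAUR65 was the 1 member called higher from 30 min to 1 h. SAUR62 and SAUR64 reached adjusted p of 0.0197 and 0.00538 with log2 changes of 0.97 ± 0.26 and 0.92 ± 0.21, just under the size limit. SAUR63 had 0.84 ± 0.30, SAUR67 0.52 ± 0.29, SAUR66 0.39 ± 0.39 and SAUR68 0.32 ± 0.19, none past the threshold on p. Whether the members differed from each other in this step was not tested. The times come from separate samples, and each group holds 2 libraries.

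Between 1 h and 3 h all 7 tested members fell again, in a step in which 4.31% of all genes were called lower. SAUR64 went from 34.4 and 33.8 FPKM to 2.02 and 1.60 FPKM, a log2 change of −3.65 ± 0.21 (limma, adjusted p = 3.82e-11). SAUR65 had the next lowest change, −3.0 ± 0.22, and the other 5 had −2.33 to −2.02. SAUR68 went from 4.51 and 2.44 FPKM to 0.0959 and 0 FPKM, and by the read steps its 3 h libraries held 1 and 0 reads.

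Against darkness, all 7 members were called lower in hypocotyls at each later time too. The changes ranged from −3.79 to −2.66 at 30 min, from −3.28 to −1.75 at 1 h, from −5.39 to −4.02 at 3 h, from −5.34 to −3.10 at 6 h and from −5.19 to −3.12 at 12 h, with limma adjusted p of at most 7.96e-05. The share of all genes called lower in hypocotyls was 1.84% at 30 min, 3.37% at 1 h, 8.82% at 3 h, 11.9% at 6 h and 14.2% at 12 h. In the authors' deposited table of Cuffdiff values, 7 of 8 members were lower at q under 0.05 and a log2 change of at least 1 at 15 min, 30 min and 1 h, and 6 of 8 from 3 h on. SAUR61 passed at no time there, and SAUR68, with q-values of 0.341 at 3 h, 0.313 at 6 h and 0.185 at 12 h, lost its call where its level was lowest.

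Hypocotyl levels of 5 members were higher at 12 h than at 3 h in both libraries, those of SAUR62 overlapped, and SAUR68 stayed near 0. The share of all genes with both 12 h libraries above both 3 h libraries was not counted. SAUR66 was at 2.61 and 3.57 FPKM at 3 h and at 9.23 and 12.9 FPKM at 12 h, 3.59-fold higher, with no overlap between the libraries. SAUR64, SAUR65, SAUR63 and SAUR67 had 12 h means 3.24-, 3.48-, 1.90- and 2.05-fold those at 3 h, also without overlap. SAUR62 had 1.54 and 1.53 FPKM at 3 h and 1.67 and 0.793 at 12 h, which overlapped. SAUR68 stayed at or below 0.210 FPKM in all 6 libraries from 3 h to 12 h, 1 read or none in each. By limma 0 of 7 members were called from 3 h to 6 h, with 3 at an unadjusted p under 0.05, where 2.64% of all genes were called higher and 3.55% lower. Those 3, SAUR63, SAUR64 and SAUR65, had limma adjusted p of 0.0246, 0.00174 and 0.00382 and were below the size limit. From 6 h to 12 h 0 of 7 were called by limma, with 2 at an unadjusted p under 0.05, where 1.75% of all genes were called higher and 1.55% lower. The step from 3 h to 12 h was not tested. In the step from 6 h to 12 h 5 of the 6 endodermis markers were called lower in hypocotyls (median −2.15), and their part in the 12 h values was not tested. At 12 h SAUR66 made up 34.2% of the summed level of the cluster, against 20.4% in darkness, and SAUR68 made up 0.484%, against 8.17%. These shares are ratios within the cluster and show unequal change only.

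**Figure D4:**
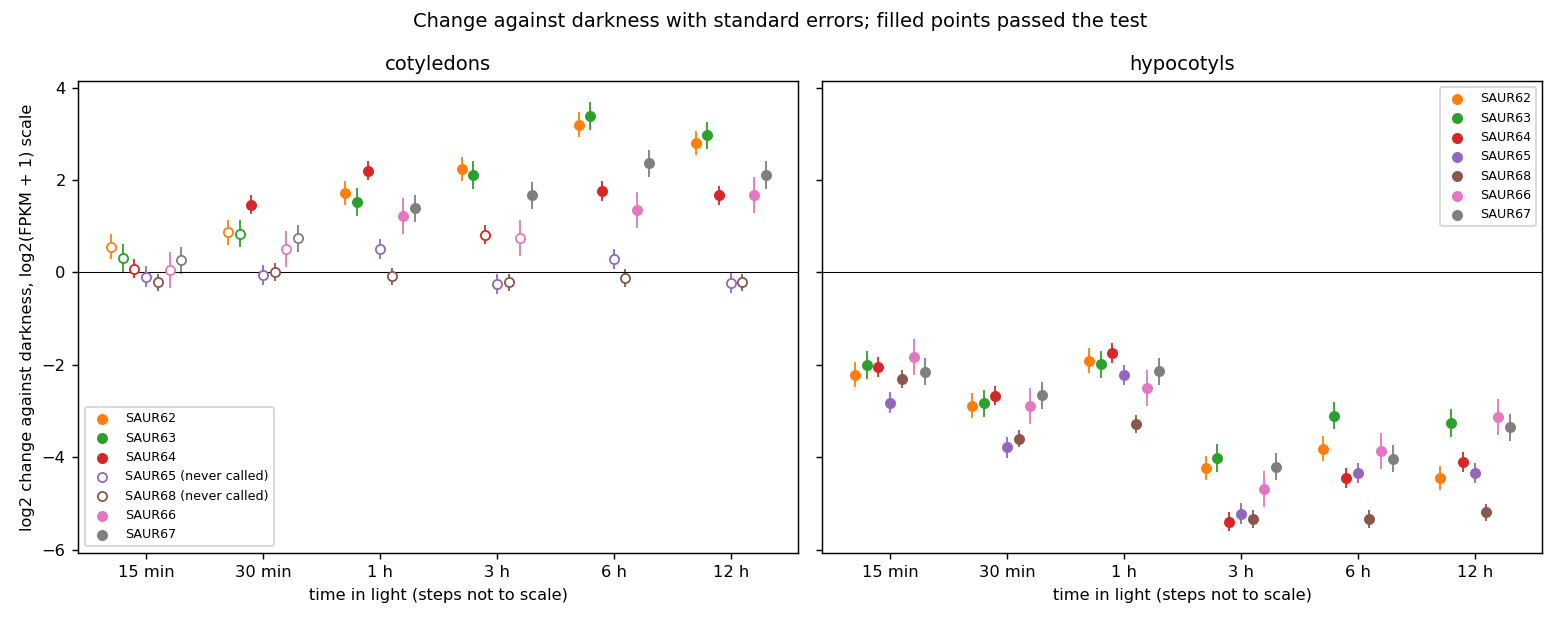
Change against darkness on the log2(FPKM + 1) scale at each light time for the 7 tested members, cotyledons on the left and hypocotyls on the right, with standard errors of the fit as bars. Filled points passed the test and open points did not; in hypocotyls all 42 points are filled and below 0, and in cotyledons 19 of 42 are filled, all above 0.

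In cotyledons, 5 of the 7 tested members rose, from levels near 0. SAUR63 went from 0.402 and 0 FPKM in darkness to 12.5 and 10.3 FPKM at 6 h, a log2 change of 3.38 ± 0.30 (limma, adjusted p = 1.06e-08). SAUR62 went from 0.332 and 0 to 8.95 and 10.3 FPKM, with 3.20 ± 0.26 (adjusted p = 2.35e-09, limma). SAUR67 went from 0.194 and 0 to 3.49 and 6.00 FPKM, with 2.36 ± 0.29. In each of the 3 genes both 6 h libraries lay above both dark libraries. How many of all genes separate in this way was not counted, and by limma 16.9% of all genes were called higher. CASP1 stood at 1.24 FPKM in dark cotyledons and 1.42 FPKM at 6 h, and its highest value in any cotyledon library was 2.06 FPKM. The endodermis markers together, CASP1 among them, were higher in lit cotyledons at these later times. They summed to 24.1 and 26.5 FPKM in darkness, 45.8 and 39.0 at 3 h and 33.2 and 28.1 at 6 h. The part of carry-over in the cotyledon levels of the members was not tested.

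At 15 min 0 of the 7 were called in cotyledons by limma or in the authors' deposited table, and 1 at an unadjusted p under 0.05, where 0.3% of all genes were called higher. SAUR64 was the first to be called, at 30 min, with 2.70 and 2.86 FPKM against 0.463 and 0.284 in darkness and a log2 change of 1.46 ± 0.21 (limma, adjusted p = 3.84e-05). This was 1 of 7 members, against 1.7% of all genes. At 1 h 5 of 7 were called higher, against 6.56% of all genes, at 3 h 3 of 7, against 13.1%, at 6 h 5 of 7, against 16.9%, and at 12 h 5 of 7, against 15.1%.

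SAUR64 had a lower cotyledon level at 3 h than at 1 h, whereas both 3 h libraries of SAUR62 and SAUR63 lay above both 1 h libraries. How many of all genes separate in this way was not counted. SAUR64 was at 6.83 and 4.07 FPKM at 1 h, at 1.57 and 1.27 FPKM at 3 h and at 3.79 and 3.49 FPKM at 6 h. Its fall from 1 h to 3 h, −1.38 ± 0.21, was called (limma, adjusted p = 2.27e-05), as the 1 member among 7 in a step in which 4.79% of all genes were called lower. SAUR66 was at 4.99 and 1.304 FPKM at 1 h, at 1.42 and 1.95 at 3 h and at 6.77 and 2.30 at 12 h, with wide gaps between replicates and overlap between 1 h and 3 h. Its call at 1 h (1.22 ± 0.39, adjusted p = 0.0181 by limma) was lost without replicate A at 1 h (adjusted p = 0.294), and also without either dark library. Whether the time courses of the members differed was not tested.

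SAUR65 and SAUR68 were called at no time in cotyledons: of their 12 limma tests 0 were called and 1 had an unadjusted p under 0.05, and 0 passed in the authors' deposited table. SAUR68 was at 0 FPKM in both cotyledon libraries at 15 min, 3 h and 12 h, and its highest cotyledon value was 0.351 FPKM, 2 reads, in darkness. SAUR65 was highest at 1 h, at 1.73 and 0.418 FPKM, a log2 change of 0.51 ± 0.22 (limma, adjusted p = 0.0714). At 12 h it was at 0.202 and 0.150 FPKM, 1 read in each library. From 1 h to 3 h it had a change of −0.77 ± 0.22 (adjusted p = 0.00715, limma), below the size limit. SAUR61 was never above 0.475 FPKM in a cotyledon library.

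The calls in cotyledons rested on low levels, which matters for their count of 19 over the 6 times. With a pseudocount of 5 FPKM the count was 4, and of the 42 tests in the authors' deposited table, 2 passed the same limits.

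On the log2(FPKM + 1) scale, the response to light differed between the tissues for each tested member. Dark cotyledons held at most 3 reads of any member per library, so a fall there could hardly register. SAUR68 was at 0 FPKM in cotyledons at 15 min with a change of only −0.22. Where no cotyledon rise was called, an equal proportional fall in both tissues cannot be told from a tissue difference. The change in hypocotyls minus the change in cotyledons was called lower for 6 of 7 members at 15 min and for 7 of 7 at every later time. At 15 min it ranged from −2.77 ± 0.38 for SAUR62 to −2.09 ± 0.27 for SAUR68 among those called, against 0.273% of all genes called lower, and SAUR66 was not called (−1.88 ± 0.55, limma adjusted p = 0.193). The 15 min calls of SAUR63, SAUR65 and SAUR68 were lost with a pseudocount of 0.1 FPKM (adjusted p of 0.613, 0.0895 and 0.856), and that of SAUR63 also without replicate B of either dark tissue (0.0597 and 0.0505). At 6 h it ranged from −7.01 ± 0.38 for SAUR62 to −4.62 ± 0.31 for SAUR65. All genes called lower in this difference made up 1.26% at 30 min, 5.04% at 1 h, 13.5% at 3 h, 19.1% at 6 h and 17.3% at 12 h.

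The order of the tissues turned over for SAUR62 by the test, and for SAUR63 in its libraries without a call. All 7 members were higher in hypocotyls at 15 min, by 2.60 to 4.30, at 30 min, by 1.58 to 2.68, and at 1 h, by 1.74 to 2.62, where 22.3%, 22.3% and 22.7% of all genes were called higher. At 3 h SAUR62 was at 1.54 and 1.53 FPKM in hypocotyls and at 4.29 and 4.56 FPKM in cotyledons, and it was called lower in hypocotyls (−1.10 ± 0.26, limma adjusted p = 0.000905), with 20.9% of all genes. The difference was −1.65 ± 0.26 at 6 h, with 23.1% of all genes called lower, and −1.88 ± 0.26 at 12 h, with 18.4%. At 12 h its cotyledon mean was 5.81-fold its hypocotyl mean. With a pseudocount of 5 FPKM these 3 differences kept their sign and adjusted p of at most 0.000645 but were smaller than the size limit, as were those of SAUR62, SAUR65 and SAUR68 at 30 min, SAUR68 at 1 h and SAUR65 and SAUR66 at 12 h.

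SAUR65 and SAUR66 were higher in hypocotyls at 12 h, by 1.25 ± 0.22 and 1.24 ± 0.39 (limma, adjusted p = 3.64e-05 and 0.00871), with 16.8% of all genes called higher. The SAUR66 call was lost without replicate B of either tissue at 12 h (adjusted p = 0.177 without the cotyledon library and 0.0727 without the hypocotyl library). SAUR63 at 6 h had −0.70 ± 0.30 (adjusted p = 0.0405, limma), SAUR65 at 6 h 0.73 ± 0.22 (limma, adjusted p = 0.00487) and SAUR64 at 12 h 0.65 ± 0.21 (limma, adjusted p = 0.00906), each below the size limit. Cotyledon means of SAUR63 were 1.34-, 1.72- and 1.44-fold its hypocotyl means at 3 h, 6 h and 12 h, without overlap between libraries. The share of all genes with such a separation was not counted. The other members were called in neither direction at 3 h, 6 h or 12 h. In hypocotyls the lateral organ markers summed to 0.159% of their cotyledon level in darkness and to 1.92% at 12 h, the endodermis markers had the lower 12 h level given above, and the part of either list in the late hypocotyl values was not tested.

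Ordered by level, dark hypocotyls came first for all 8 members, with both libraries above those of every other group. For how many of all genes this holds was not counted. Hypocotyls at 1 h came second for SAUR61, SAUR62, SAUR63, SAUR64, SAUR65 and SAUR67, and hypocotyls at 15 min for SAUR66 and SAUR68. For SAUR62, cotyledons at 6 h came next. Of the 13 pairs of neighbours in the order of 14 groups, between 5 (SAUR63, SAUR64) and 10 (SAUR68) had overlapping libraries, mostly at the low end.

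Across the 7 hypocotyl means the members were alike, with Pearson correlations of log2(FPKM + 1) from 0.917 to 0.993 over the 21 pairs of tested members (median 0.966). Across the 7 cotyledon means the correlations ran from −0.502 to 0.996 (median 0.527). SAUR62, SAUR63 and SAUR67 had 0.992 to 0.996 with each other, and SAUR68, near 0 throughout, had the lowest values. The points share libraries and depth, and these correlations are a description.

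Sequence sharing could move reads between some members. Of all 50-nt stretches of the SAUR63 transcript, 27.1% occurred also in SAUR67, and 22.7% of those of SAUR62 occurred in SAUR75 (AT5G27780), which had means of at most 0.106 FPKM in all groups. SAUR64 and SAUR65 shared none. SAUR61 shared 43.5% with AT1G06257, a gene annotated over it on the other strand, and AT1G29435 is annotated over SAUR63 and SAUR64 on the other strand. The sample titles call the libraries stranded, while the protocol names the TruSeq v2 kit, and the sources used here do not say whether counting used strand, so it is not known whether reads of SAUR61, SAUR63 and SAUR64 were told apart from those of the partners. Levels of SAUR63 and SAUR67 are uncertain to the extent of their shared stretches, and SAUR62 shared 1.3% with other members.

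**Figure D5:**
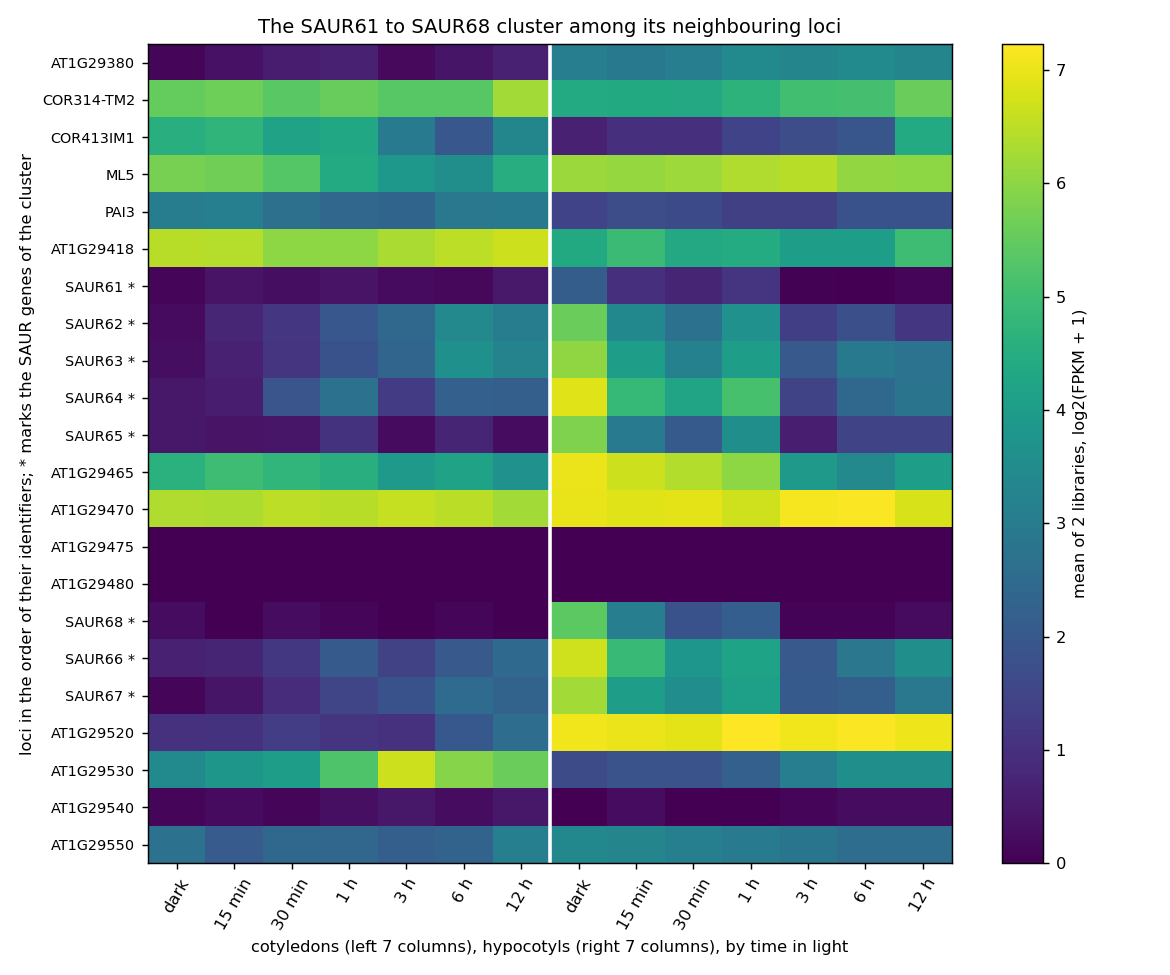
Mean level, as log2(FPKM + 1) of 2 libraries, of the 22 loci from AT1G29380 to AT1G29550 in identifier order (rows) in the 14 groups (columns); an asterisk marks a member. The dark hypocotyl column is bright in 7 of the 8 members and fades by 3 h, while AT1G29470 and AT1G29520 between and beside the members stay bright in hypocotyls.

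Of the 14 other loci in this stretch 11 were tested, and by limma 0 were called in hypocotyls at 15 min, 1 had an unadjusted p under 0.05 and 0 passed in the authors' deposited table. Of all genes 0.616% were called lower and 0.38% higher in that comparison, so 0 of 11 is near the share of all genes. AT1G29465, between the 2 blocks, was at 128 ± 5.36 (SD, n = 2) FPKM in dark hypocotyls, at 102 FPKM at 15 min (log2 change −0.32, limma adjusted p = 0.676) and at 14 FPKM at 3 h (−3.14, adjusted p = 1.88e-10, limma). AT1G29470 was at 127 FPKM in dark hypocotyls and 140 FPKM at 3 h, and AT1G29475 and AT1G29480, also between the blocks, were listed at 0 in all libraries. AT1G29520, the next locus after SAUR67, was at 135 FPKM in both the dark and the 3 h hypocotyls and at 1.04 FPKM in dark cotyledons. AT1G29530 beside it rose in cotyledons, from 9.73 to 101 FPKM at 3 h (3.27, limma adjusted p = 8.96e-12).

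On the other side, AT1G29418, next to SAUR61, was at 19.8 FPKM in dark hypocotyls and 29.7 FPKM at 15 min (0.56, limma adjusted p = 0.217), and at 86.7 FPKM in dark cotyledons. PAI3, a tryptophan synthesis gene for phosphoribosylanthranilate isomerase, was between 1.56 and 2.55 FPKM in hypocotyls. ML5, a MEI2-like RNA-binding protein gene, fell in cotyledons from 53.1 to 11 FPKM at 6 h (−2.17, limma adjusted p = 8.75e-12) and had a change of 0.30 in hypocotyls at 3 h (adjusted p = 0.0514, limma). COR413IM1, a cold-regulated chloroplast membrane protein gene, fell in cotyledons from 22.5 to 2.87 FPKM at 6 h (−2.61) and rose in hypocotyls from 0.591 to 2.29 FPKM at 3 h (1.05, limma adjusted p = 0.000317). COR314-TM2, AT1G29380 and AT1G29550 were called at none of 15 min, 1 h and 3 h in hypocotyls or 3 h and 6 h in cotyledons, and AT1G29540 was below 0.4 FPKM in all groups.

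Some of the other SAUR genes were also called lower in hypocotyls. Of the 55 tested genes outside the cluster that RefSeq names SAUR, 24 were called lower at 15 min, against 0.616% of all genes, with a median log2 change of −0.92 against −0.02 for all genes. With the 7 members, SAUR genes made up 31 of the 115 genes called lower. The lowest changes were −3.36 ± 0.39 for SAUR22, −3.11 ± 0.29 for SAUR19 and −3.0 ± 0.23 for SAUR23. All 6 genes of the SAUR19 to SAUR24 cluster, another tandem group whose proteins promote cell expansion, were called lower at 15 min (median −2.98), and 7 of 10 tested genes of the chromosome 4 clusters (median −1.51). At 3 h 35 of 55 were called lower, against 8.82% of all genes, with SAUR25 (−6.32 ± 0.18), SAUR11 (−6.19 ± 0.52) and SAUR21 (−5.18 ± 0.39) lowest. At that time 6 of 55 were called higher, against 12.4% of all genes, with SAUR33 (2.20 ± 0.33), SAUR40 (2.14 ± 0.23) and SAUR41 (1.70 ± 0.21) highest.

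In cotyledons at 6 h 20 of the 55 were called higher, against 16.9% of all genes, and 8 lower, against 11% of all genes. SAUR78 (4.44 ± 0.17), SAUR16 (4.41 ± 0.24) and SAUR14 (4.35 ± 0.18) had the highest changes and SAUR55 (−4.41 ± 0.49), SAUR17 (−4.07 ± 0.62) and SAUR54 (−3.63 ± 0.19) the lowest. SAUR14 reached 282 FPKM and SAUR16 60.6 FPKM there, against 11.4 FPKM for SAUR63, the highest member.

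The genes whose 14 group means were most like the mean profile of the tested members included other SAURs. SAUR20 had a Pearson r of 0.982, AT4G27280 0.959, HAT1, a homeodomain-leucine zipper gene, 0.946, IKU1 0.941 and SAUR26 0.940. SAUR20 went from 130 FPKM in dark hypocotyls to 19.3 FPKM at 15 min and 5.04 FPKM at 3 h, and from 1.19 to 6.70 FPKM in cotyledons by 6 h. IKU1 was alike over the whole series but not in the early fall (−0.25 at 15 min). The best match of single members was SAUR25 for SAUR68 (r = 0.994), SAUR23 for SAUR65 (0.978), SAUR15 for SAUR62 (0.955), SAUR20 for SAUR64 (0.964) and SAUR67 (0.961), AT3G05980 for SAUR63 (0.959) and AT3G18773 for SAUR66 (0.964). SAUR25 was at 85.3 FPKM in dark hypocotyls and at or below 0.131 FPKM in hypocotyls at 3 h and in cotyledons in darkness and at 6 h.

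The genes for the proteins on which SAURs act were not called at 15 min. Of all genes 0.616% were called lower and 0.38% higher in hypocotyls then, so 0 calls in a short list is near the share of all genes. Of the 9 D-clade PP2C phosphatase genes, 0 were called by limma in hypocotyls at 15 min and 2 had an unadjusted p under 0.05, with 3 of 9 called lower at 3 h, against 8.82% of all genes, and 4 of 9 at 6 h and at 12 h, against 11.9% and 14.2%. AT5G66080 had the lowest change at 3 h, −2.57, and AT3G17090 went from 123 to 34.8 FPKM (−1.79). AT5G02760 had −1.75 at 3 h. Of the 7 tested plasma membrane proton pump genes, 0 were called at 15 min, 2 with an unadjusted p under 0.05 in limma, and 2 of 7 were called lower at 3 h, against the same 8.82% of all genes, HA2 (879 to 209 FPKM, −2.07) and HA9 (4.22 to 0.975 FPKM, −1.40). HA1 was at 191 FPKM in dark hypocotyls and 238 FPKM at 3 h.

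Genes upstream of SAURs in known pathways were counted in the same way. Of 10 auxin receptor and activating ARF genes, 0 were called by limma in hypocotyls at 15 min and 1 had an unadjusted p under 0.05. This too is near the share of all genes, 0.616% lower and 0.38% higher. None of the genes of these 3 lists that are held in the authors' deposited table passed the same limits there at 15 min. At 3 h GRH1, a relative of the receptor TIR1 also called AFB1, was lower (−3.07) and ARF8, an activating auxin response factor, higher (1.21). Of 8 PIF, BZR and HY5 factors, HY5, a bZIP factor that promotes light responses, was the 1 called at 15 min (2.54, from 21.9 to 133 FPKM), where 0.38% of all genes were called higher. Of 11 auxin-induced genes 1 was called lower at 15 min, IAA29, an Aux/IAA repressor (−1.89), against 0.616% of all genes. The list median was −0.67. Below the size limit at 15 min, IAA6 (−0.98), IAA19 (−0.95), SHY2 (−0.79) and ATAUX2-11 (−0.60) had limma adjusted p of 0.000511, 0.00461, 0.0251 and 0.0134. At 30 min and at 1 h 9 of 11 were called lower (medians −1.20 and −1.56), against 1.84% and 3.37% of all genes, and at 3 h 10 of 11 (median −2.90), against 8.82%, with IAA6 at −5.84 and IAA19 at −4.67. Over all genes the median change at 3 h was 0.04. In cotyledons at 6 h, PIF7 (4.09), PIL6, also called PIF5 (2.77), and PIF4 (2.71) were higher and PIF3 lower (−2.19), while 1 of 11 auxin-induced genes was higher and 2 lower. Of all genes 16.9% were called higher and 11% lower there, so the auxin-induced counts are near the share of all genes.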

How the data were processed

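Poly(A) RNA of 28 libraries, 14 groups with 2 biological replicates each, was sequenced from TruSeq v2 libraries, per the labels' protocols. Per the submitters' processing notes, the authors used CASAVA 1.8.2, TopHat2 2.0.8, Cuffdiff 2.1.1 and Cuffnorm with the TAIR10 build. The deposited values are FPKM per library from Cuffnorm, and, in the authors' deposited table of Cuffdiff comparisons, log2 fold changes with q-values, used as an alternative for light against darkness. FPKM values carry no counts, so precision is given by the replicates, and the relative depth was read from the steps between low values.

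FPKM values were tested as log2(FPKM + 1) with limma 3.58.1 in R 4.3.3, on the 18678 of 33557 genes whose mean level reached 1 FPKM, with 14 group means as coefficients, a mean-variance trend and robust variance estimates. P-values were adjusted by the Benjamini-Hochberg method over all tested genes within each comparison; the method was tested on simulated data. Comparisons were each light time against darkness within a tissue, the difference of these changes between tissues, hypocotyls against cotyledons at each time, and neighbouring times. The alternatives were other pseudocounts, filters, scalings and variance settings, 1 tissue only, replicate blocks, the authors' values, and leaving out each library in turn. P-values measure the spread between replicates that the labels call biological.

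The members, the gene lists and the tests were chosen with earlier results of these data known. Genes outside the cluster were named by rule: all loci of the table from AT1G29380 to AT1G29550, the 5 genes with the highest correlation with the mean standardised profile of the tested members over 14 group means and the best match of each member, up to 4 called genes of each list with the largest changes, and the 3 highest and 3 lowest called changes among the other genes that RefSeq names SAUR. CASP1 and SAUR75 were chosen after their values were seen, as was the largest cotyledon level of other SAURs.

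Gene positions and sequences came from RefSeq's TAIR10.1 copy of the genome; the deposited files hold no coordinates, and none of theirs were converted. One gene counted among the SAUR-named genes by symbol, AT5G01830, shares the symbol SAUR21 with AT5G18030, and SAUR21 here means AT5G18030. Replicate letters were not used as pairs in the main fit, and replicate blocks were among the alternatives.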

Additional observations from a re-analysis of the deposited data

Results flagged for a closer look

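The response to light differed between the tissues by a test of the difference itself, the change in hypocotyls minus the change in cotyledons on the log2(FPKM + 1) scale (limma, 41 of the 42 tests over 7 genes and 6 times called, all negative). Of all genes 0.273% were called lower in this difference at 15 min, 1.26% at 30 min and 5.04% at 1 h. At 3 h, 6 h and 12 h the shares were 13.5%, 19.1% and 17.3%. The 2 tissues' changes share no dark libraries, but the 6 times of a tissue do.

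SAUR62 had −2.77 at 15 min, −3.75 at 30 min, −3.63 at 1 h, −6.47 at 3 h, −7.01 at 6 h and −7.24 at 12 h. SAUR63 had −2.32, −3.67, −3.52, −6.12, −6.48 and −6.23 at the same times. SAUR64 had −2.13, −4.13, −3.95, −6.21, −6.21 and −5.77. For SAUR65 the differences were −2.73, −3.74, −2.74, −4.97, −4.62 and −4.10. For SAUR67 they were −2.42, −3.40, −3.53, −5.88, −6.39 and −5.46, and for SAUR68 −2.09, −3.61, −3.19, −5.12, −5.22 and −4.98. SAUR66 was not called at 15 min and had −3.41 at 30 min, −3.73 at 1 h, −5.43 at 3 h, −5.21 at 6 h and −4.80 at 12 h.

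In SAUR65 and SAUR68, whose cotyledon changes passed the test at no time, the hypocotyl changes were called lower at all 6 times. Their dark cotyledon libraries held at most 3 reads each, too few for a fall to register. For these 2 genes an equal proportional fall in both tissues cannot be told from a tissue difference. The same holds for every tested member at 15 min, for all but SAUR64 at 30 min, and for SAUR64 and SAUR66 at 3 h. No cotyledon rise was called in those cases. SAUR62, SAUR63 and SAUR67 were called higher in cotyledons and lower in hypocotyls at 1 h, 3 h, 6 h and 12 h. How many of all genes were called in both these ways was not counted. With a pseudocount of 5 FPKM their cotyledon changes at 1 h and 3 h were below the size limit. Those of SAUR67 were also below it at 6 h and 12 h. In the authors' deposited table their cotyledon changes passed at none of these times (Cuffdiff, q of 0.181 to 0.491).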

How the results depend on the processing

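The 42 lower calls of the 7 tested members in hypocotyls ranged from 41 to 42 when each library was left out. Under the other alternatives they ranged from 36, with a filter at a mean of 5 FPKM, to 42. SAUR68 did not reach that mean and was not tested under this filter, so the 36 lacks its calls. The 41 lower calls of the response difference ranged from 40 to 42 and from 35 to 42 in the same way. The 30 higher calls of hypocotyls against cotyledons ranged from 29 to 32 and from 24 to 32. Among the changes against darkness, response differences and tissue differences of single members, no called value changed sign under an alternative that gave a finite value.

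The 19 higher calls in cotyledons ranged from 18 to 21 when a library was left out, were 4 with a pseudocount of 5 FPKM and 2 with the authors' Cuffdiff values. A pseudocount of 5 FPKM shrinks changes of genes below that level by construction, and the cause of the lower count in the authors' table was not tested. The 3 lower calls of SAUR62 in hypocotyls against cotyledons stayed 3 with each library left out and were 0 with a pseudocount of 5 FPKM. The 3 higher calls over neighbouring times were 6 with a pseudocount of 0.1 FPKM and 0 with one of 5 FPKM, and ranged from 3 to 8 with a library left out: 8 without cotyledons at 1 h replicate B, and 5 without cotyledons at 30 min replicate B or at 6 h replicate A. The 16 lower calls over neighbouring times ranged from 15 to 18 with a library left out. A group left with 1 library was assumed to vary like the other groups.

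Scaling moved the median change of all genes by at most 0.0966. Same-lettered replicates showed no shared deviation (median r = 0.0053 over 91 pairs of groups, 3 above 0.1). With the letter as a replicate block the calls were 42 in hypocotyls, 19 in cotyledons, 41 for the response difference, 30 and 3 between tissues and 16 and 3 over neighbouring times; with a replicate block within time the response difference had 40. Depth limits what can be said of dark cotyledons, where each member had at most 3 reads per library, and of SAUR61, which was not tested.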
